A study of Mus musculus with 48 samples.

Results

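The 38 genes described here are the glucose transporters, glycolytic enzymes, lactate-handling proteins and hypoxia-responsive genes on a fixed list of symbols. All 38 were found among the 49671 genes of the count table. The list was chosen with earlier results of these data known, so shares of all genes set beside its counts are description only. Their messages were counted in cultured NMM cells, an NRAS-mutant murine melanoma line grown in medium with serum, from stranded poly(A) libraries. Cells were left unstimulated or were kept continuously in 1 of 11 cytokine conditions for 2, 6, 12 or 24 h, with 1 library for each condition and duration and 48 libraries in 12 groups. The conditions were interferon gamma (IFNγ) at 0.01, 1 or 100 ng/ml, tumour necrosis factor (TNF) at 0.1, 1 or 10 ng/ml, both together at 100 and 10 ng/ml (the combination), interleukin-2 (IL-2) at 6000 U/ml, lymphotoxin at 2 ng/ml, TGF-β at 10 ng/ml and the type I interferon IFNα1 at 5000 U/ml. All groups carry the same NRAS mutation and came from the same line, so the libraries describe 1 tumour line in culture and no surrounding tissue.

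Glycolysis turns glucose into pyruvate. Glucose enters through GLUT transporters, is phosphorylated by hexokinases, passes the phosphofructokinase step that commits it to the pathway, and is split and oxidised by the lower enzymes. Lactate dehydrogenase A reduces pyruvate to lactate, and monocarboxylate transporters carry lactate out of the cell. Pyruvate dehydrogenase kinases block pyruvate dehydrogenase, the mitochondrial enzyme that oxidises pyruvate. Under low oxygen, prolyl hydroxylases of the EGLN family stop marking HIF-1α for degradation, and HIF-1 bound to the core letters ACGTG or GCGTG raises transcription of most of these genes. Cancer cells often run glycolysis fast even with oxygen, and melanoma lines are known for high lactate output. No oxygen level, glucose uptake or lactate was measured in these libraries.

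Each condition has 4 libraries that differ in duration and none that repeats a duration, and separate cultures are not stated. Effects are log2 changes averaged over the 4 durations, followed by ± an approximate standard error, and a gene is called when its edgeR quasi-likelihood p, adjusted over the 12203 genes tested, is under 0.05. These p-values therefore rest on a spread pooled over all 48 libraries of the 12 groups, the departure from additive stimulus and duration terms. That spread includes changes of a stimulus effect between durations, and part of it may be technical. Levels are CPM values (reads of a gene relative to the scaled total of its library), from totals of 5612907 to 9663207 counts. The label of melanoma was checked against 11 melanocyte markers: 8 stayed under 1 CPM in all 48 libraries, Dct, Mlana and Slc45a2 were at 0, Tyr reached at most 0.12 CPM and Sox10 0.132 CPM, while Mitf lay between 3.52 and 12.8 CPM and Gpnmb between 155 and 597 CPM. Most pigment cell markers were thus at or near 0 in this line. Of 10 markers of T and NK cells, 8 were at 0 in all libraries, and Lck lay between 1.07 and 15.7 CPM. The 10 summed to 1.73 to 3.38 CPM in unstimulated and 3.92 to 15.7 CPM in combination libraries, and the part of this in the results was not tested. The macrophage genes Adgre1 and Tyrobp were at 0, and Cd68 lay between 1.61 and 5.24 CPM. The 8 fibroblast markers summed to 340 to 512 CPM in unstimulated and 75.4 to 361 CPM in combination libraries, with Col3a1 (34.2 to 556 CPM over all libraries) the highest of them. Lum, Postn and Thy1 stayed under 1 CPM in all libraries, and Col1a1 reached at most 1.47 CPM. Dcn, Pdgfrb and Pdgfra reached at most 47.1, 25.6 and 22 CPM. The 8 endothelial markers summed to 5.98 to 28.4 CPM, 6 of them under 1 CPM in all libraries. Cdh5 lay between 2.59 and 26.2 CPM and Egfl7 between 1.48 and 6.93 CPM. The part of fibroblast and endothelial markers in the results was not tested. In bulk libraries, fewer cells of a kind and less RNA per cell cannot be told apart. The column names carry 24 index sequences, all 24 used in the 2 h and 6 h libraries and all 24 again in the 12 h and 24 h libraries.

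Counts were high enough for a test in 35 of the 38 genes. The other 3 were Slc2a3, which encodes the glucose transporter GLUT3, with 160 counts over all 48 libraries, the aldolase isoform gene Aldoc with 126 and the carbonic anhydrase gene Car9 with 113. Car9 is a widely used hypoxia marker, and its level was at most 0.482 CPM in unstimulated libraries. Per kilobase of exon, the highest levels in unstimulated cells belonged to Pkm (475 ± 10.6 CPM per kb, SD over 4 durations), Aldoa (441 ± 15.4), Ldha (427 ± 36.8), Pgk1 (371 ± 24.3) and Eno1 (307 ± 16). These 5 encode pyruvate kinase, aldolase, lactate dehydrogenase A, phosphoglycerate kinase and enolase, and Aldoa and Ldha differed by less than the spread of Ldha. Gapdh, normally among the most abundant glycolytic messages, stood at 4.06 ± 1.05 CPM per kb. Gapdh has many processed pseudogenes, and reads that match several places may have been lost in the authors' counting. This was not tested, and the Gapdh values are treated as uncertain. The 3 genes with the fewest counts among those tested were Adm with 368, Ankrd37 with 525 and Eno2 with 1373 counts over all libraries.

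Among isoforms, Hk1 (26.7 ± 2.64 CPM per kb) and Hk2 (36.3 ± 4.02) were both well expressed in unstimulated cells. Of the phosphofructokinases, the liver-type gene Pfkl was the highest, with 29.2 ± 2.77 CPM per kb. The muscle-type gene Pfkm had 10.6 ± 1.34 and the platelet-type gene Pfkp 3.45 ± 0.582. Length here is all annotated exon bases of a gene in GENCODE, 13401 for Pfkp and 3340 for Pfkm, not that of the transcript present. Without division by length, Pfkl had 195, Pfkp 46.2 and Pfkm 35.3 CPM, so the order of Pfkm and Pfkp depends on the length used. Ldhb stood at 13.2 ± 1.8 CPM per kb, far below Ldha.

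Promoter sequences show the letters through which HIF-1 is known to act. For 34 of the 38 genes, RefSeq windows of 300 bases, from 250 before to 50 after an annotated start, were at hand on build GRCm38.p6. ACGTG or GCGTG, searched on both strands with overlaps counted, was in at least 1 window of 31 of the 34 genes, 91.2%, against 46.7% of 27025 genes with windows and 68.7% of the 9114 of them whose transcripts were tested here. ACGTG alone was in 67.6% of the 34 genes and 29.8% of the tested genes, GCGTG alone in 64.7% and 57.3%. Of all 32851 windows of that length, 19.6% held ACGTG, 32.4% GCGTG and 43.8% either. Base composition was not matched, nor was the number of windows per gene, with 51 windows for the 34 genes and 32851 for the 27025. The 250 bases upstream of the start follow for Hk2, which rose with IFNγ, and for Pgk1, Ldha, Pdk1 and Bnip3, whose levels were low late in the combination. Each is printed 5′ to 3′ on the strand of its gene, with both words and their reverse complements in capitals.
Hk2 (chr6:82774455-82774704, minus strand): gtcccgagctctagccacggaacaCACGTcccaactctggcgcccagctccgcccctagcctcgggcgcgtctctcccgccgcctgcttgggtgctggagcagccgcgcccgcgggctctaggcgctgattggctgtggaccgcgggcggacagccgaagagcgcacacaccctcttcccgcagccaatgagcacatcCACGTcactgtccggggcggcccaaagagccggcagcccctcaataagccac
Pgk1 (chrX:106186850-106187099, plus strand): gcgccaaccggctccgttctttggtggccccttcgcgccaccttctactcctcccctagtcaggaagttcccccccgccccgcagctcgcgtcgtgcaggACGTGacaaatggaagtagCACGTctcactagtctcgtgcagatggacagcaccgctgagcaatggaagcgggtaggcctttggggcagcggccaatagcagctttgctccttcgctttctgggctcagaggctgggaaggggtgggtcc
Ldha (chr7:46845554-46845803, plus strand): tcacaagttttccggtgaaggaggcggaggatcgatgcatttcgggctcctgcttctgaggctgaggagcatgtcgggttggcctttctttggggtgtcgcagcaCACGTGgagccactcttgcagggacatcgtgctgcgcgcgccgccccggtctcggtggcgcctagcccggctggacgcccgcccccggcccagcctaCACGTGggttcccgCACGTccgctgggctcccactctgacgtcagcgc
Pdk1 (chr2:71872974-71873223, plus strand): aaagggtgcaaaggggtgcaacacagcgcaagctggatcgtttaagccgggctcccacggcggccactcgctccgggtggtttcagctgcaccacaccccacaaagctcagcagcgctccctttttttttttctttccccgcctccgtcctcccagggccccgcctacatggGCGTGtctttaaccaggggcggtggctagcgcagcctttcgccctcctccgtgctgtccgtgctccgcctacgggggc
Bnip3 (chr7:138909507-138909756, minus strand): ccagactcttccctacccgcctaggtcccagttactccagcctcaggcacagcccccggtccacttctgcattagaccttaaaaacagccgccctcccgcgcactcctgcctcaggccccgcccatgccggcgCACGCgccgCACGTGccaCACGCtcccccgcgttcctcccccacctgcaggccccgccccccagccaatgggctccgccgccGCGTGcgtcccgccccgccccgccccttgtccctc
Hk2 and Pgk1 each hold ACGTG 2 times in the stretch shown, Pdk1 holds GCGTG but not ACGTG, and Bnip3 holds both. In Ldha, the run CACGTG stands at 2 places and holds ACGTG on both strands.

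**Figure D1:**
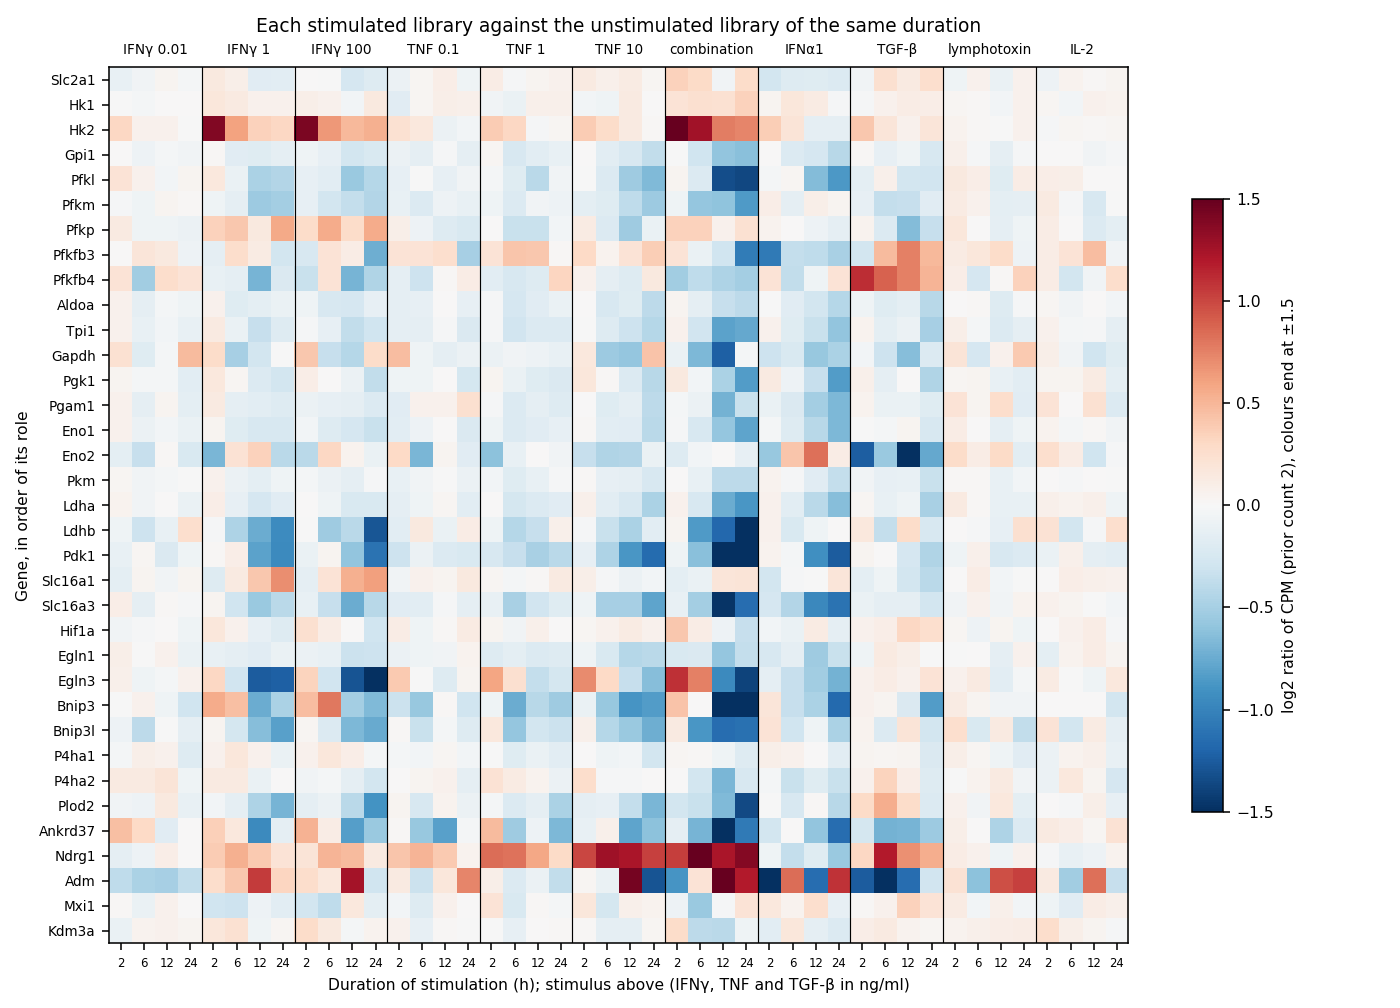
Log2 ratio of CPM, with a prior count of 2, for each of the 35 tested genes (rows) in each stimulated library against the unstimulated library of the same duration (columns, durations in hours within each stimulus). Red is higher and blue is lower; Hk2 is red in the IFNγ and combination columns, Ndrg1 in the TNF, combination and TGF-β columns, and many enzymes are blue at 12 and 24 h of the combination.

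IFNγ and TNF together moved most of the list: 5 of the 35 tested genes rose and 20 fell over the 4 durations, where 20.9% of all tested genes were called higher and 21.2% lower. The median log2 change of the 35 was -0.28, against -0.03 for all genes. The 5 that rose were Hk2 and Ndrg1, by more than a doubling, and Hk1, Pfkp and Slc2a1 by small amounts. The 20 that fell included 12 of the 16 tested glycolytic enzymes and lactate dehydrogenases, Pdk1 and the lactate exporter gene Slc16a3. DESeq2 with the same terms called the same 25 genes, while a fit to the combination and unstimulated libraries alone called 5 genes: Hk1, Hk2 and Ndrg1 higher and Pfkm and Egln1 lower. Without duration terms 11 genes were called, all among the 25. All genes called were 5129 in the full fit, 2024 with the combination and unstimulated libraries alone and 2388 without duration terms. The calls of 13 genes held whichever single duration was left out: Hk1, Hk2, Gpi1, Pfkm, Tpi1, Eno1, Ldha, Pdk1, Slc16a3, Egln1, Bnip3l, Plod2 and Ndrg1. The other 12 lost theirs in at least 1 such fit, and 15 of the 25 remained without the 12 h libraries. That fit called 3436 of all genes.

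**Figure D2:**
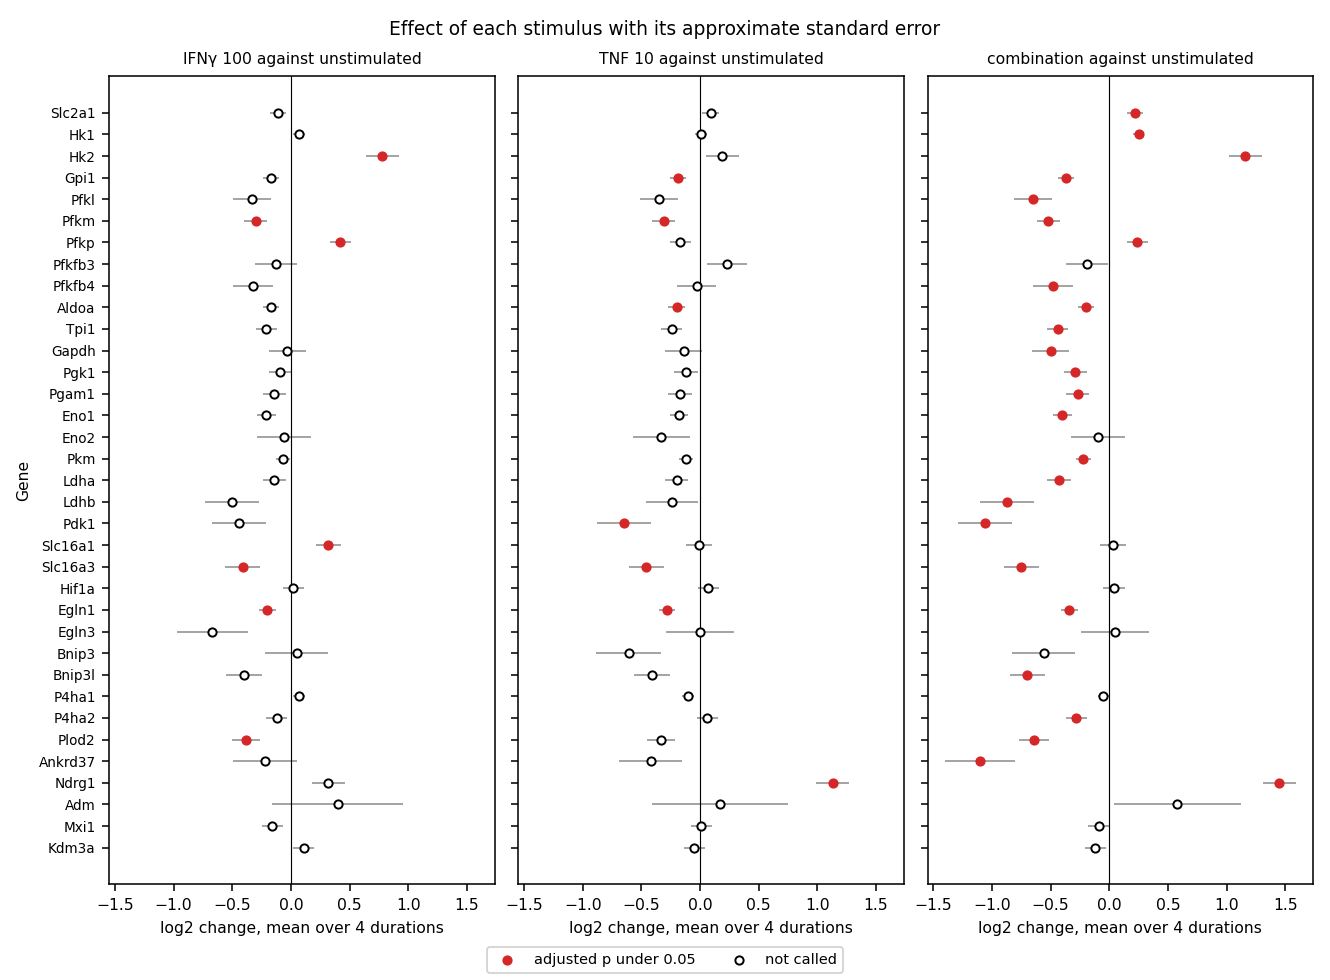
Log2 change against unstimulated cells, averaged over 4 durations, for each tested gene (rows) with 100 ng/ml IFNγ, 10 ng/ml TNF and both; bars are approximate standard errors, filled red points are called. In the combination, Hk2 at 1.16 and Ndrg1 at 1.45 stand far to the right, and Ankrd37 at -1.10 and Pdk1 at -1.06 farthest to the left.

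Lower values built up over time. Median ratios of the 35 genes to the unstimulated library of the same duration were 0.03 at 2 h, -0.21 at 6 h, -0.58 at 12 h and -0.39 at 24 h on the log2 scale. At 12 h, 28 of the 35 had a lower value than in the unstimulated library, against 15 at 2 h, while the median of all genes stayed between -0.03 and -0.02. Fitted to the 2 h and 6 h libraries only, the combination had 6 genes higher and 1 lower. With the 12 h and 24 h libraries only it had 4 higher and 24 lower. Among all genes, 1853 were called in the first of these fits and 5355 in the second, so calls were more numerous late in the whole table as well. Those totals count both directions together. The mitochondrially encoded share of counts at 24 h was 0.513% in the combination and 0.964% in unstimulated cells, and its part in the fall was not tested.

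At the entry to the pathway, Slc2a1, which encodes the main glucose transporter GLUT1, read 270, 214, 233 and 220 CPM at 2, 6, 12 and 24 h in unstimulated cells and 342, 263, 225 and 264 CPM in the combination. The combination was higher at 3 of 4 durations, and the change of 0.22 ± 0.07 was called (adjusted p = 0.0117, edgeR). This call was lost without the 6 h or the 24 h libraries. Hexokinase 2, the inducible enzyme that traps glucose in the cell, had 218, 237, 228 and 183 CPM in unstimulated cells. With the combination, Hk2 reached 765, 570, 390 and 304 CPM. Every combination library was above every unstimulated one, with the widest gap at 2 h, and the change was 1.16 ± 0.14 (adjusted p = 1.16e-08, edgeR). Hk1, the constitutive isoform, rose by 0.25 ± 0.05 (adjusted p = 1.13e-04, edgeR). Its values were 219, 201, 237 and 253 CPM without and 253, 237, 278 and 320 CPM with both cytokines, higher at each duration although the ranges overlap.

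The phosphofructokinase isoforms went apart. Pfkl had 200, 181, 219 and 180 CPM in unstimulated cells and 206, 156, 86.7 and 70.3 CPM in the combination. Its values met at 2 h and lay far apart from 12 h on, and the mean change was -0.65 ± 0.16 (adjusted p = 0.0012, edgeR). Pfkm fell by 0.52 ± 0.10, with 34.9, 30.7, 34.2 and 41.5 CPM in unstimulated and 33.2, 20.5, 22.5 and 22.9 CPM in combination libraries. Pfkp, in contrast, rose by 0.24 ± 0.09 (adjusted p = 0.0269, edgeR), a call lost when the 2 h, the 6 h or the 24 h libraries were left out. Gpi1, the glucose phosphate isomerase that acts between hexokinase and phosphofructokinase, fell by 0.37 ± 0.07 and was lowest at 12 h with 358 CPM against 540 CPM. Of the bifunctional enzymes that set fructose 2,6-bisphosphate, an activator of phosphofructokinase, Pfkfb4 fell by 0.48 ± 0.17 and Pfkfb3 had -0.19 ± 0.18, which was not called. The Pfkfb4 call was lost without the 2 h, the 12 h or the 24 h libraries.

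From aldolase to pyruvate kinase, all tested genes but Eno2 fell in the combination, where 21.2% of all tested genes were called lower. Triose phosphate isomerase, Tpi1, fell by 0.44 ± 0.09, with 436, 423, 459 and 463 CPM in unstimulated and 453, 346, 264 and 271 CPM in combination libraries. Eno1 had 1662, 1770, 1603 and 1576 CPM without and 1643, 1495, 1071 and 913 CPM with both cytokines, a change of -0.40 ± 0.08 (adjusted p = 1.37e-04, edgeR). Only the 2 h value of the combination lay within the unstimulated range of Eno1. Pgk1 changed from 823, 817, 782 and 910 CPM to 912, 792, 559 and 508 CPM, higher at 2 h and lower later, with a mean of -0.29 ± 0.10 (adjusted p = 0.0191, edgeR). The remaining called genes, Aldoa (-0.20 ± 0.07), Pgam1 (-0.27 ± 0.10), Pkm (-0.22 ± 0.06) and the uncertain Gapdh (-0.50 ± 0.16), moved by less or on few counts. Calls of Aldoa and Pgam1 were lost without the 6 h, the 12 h or the 24 h libraries. Those of Pkm and Pgk1 were lost without the 12 h or the 24 h libraries, and that of Gapdh without 6 h or 12 h. Eno2, the neuronal enolase, had -0.10 ± 0.23 and was not called.

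The genes for the fate of pyruvate and lactate, Ldha, Ldhb and Pdk1, had a median of -0.87 and all 3 fell (21.2% of all tested genes). Ldha had 1461, 1549, 1383 and 1262 CPM in unstimulated and 1523, 1313, 820 and 689 CPM in combination libraries, close together at 2 h and farthest apart at 24 h. Its mean change was -0.43 ± 0.10 (adjusted p = 5.36e-04, edgeR). Pdk1, the kinase that blocks pyruvate dehydrogenase, had 63.9, 54.7, 66.2 and 65.3 CPM without and 61.4, 35.2, 17.7 and 13.1 CPM with both cytokines. From 6 h on, each combination library lay below all unstimulated ones, and the change was -1.06 ± 0.23 (adjusted p = 3.90e-04, edgeR). Ldhb, the isoform that favours pyruvate, went from 23.5, 22.5, 17.2 and 20 CPM to 24.2, 12.3, 7.46 and 4.12 CPM, a change of -0.87 ± 0.23 (adjusted p = 0.00282, edgeR). The lactate exporter gene Slc16a3, for MCT4, had 70.5, 69.5, 75.6 and 66.7 CPM and then 65.3, 48.6, 27 and 30.1 CPM, with every combination value below every unstimulated value and a change of -0.75 ± 0.15 (adjusted p = 1.07e-04, edgeR). Slc16a1, for MCT1, which carries lactate in either direction, had 0.03 ± 0.11 and was not called. The calls of Pdk1, Ldha, Ldhb and Slc16a3 were lost in the fit to the 2 compared groups alone.

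**Figure D3:**
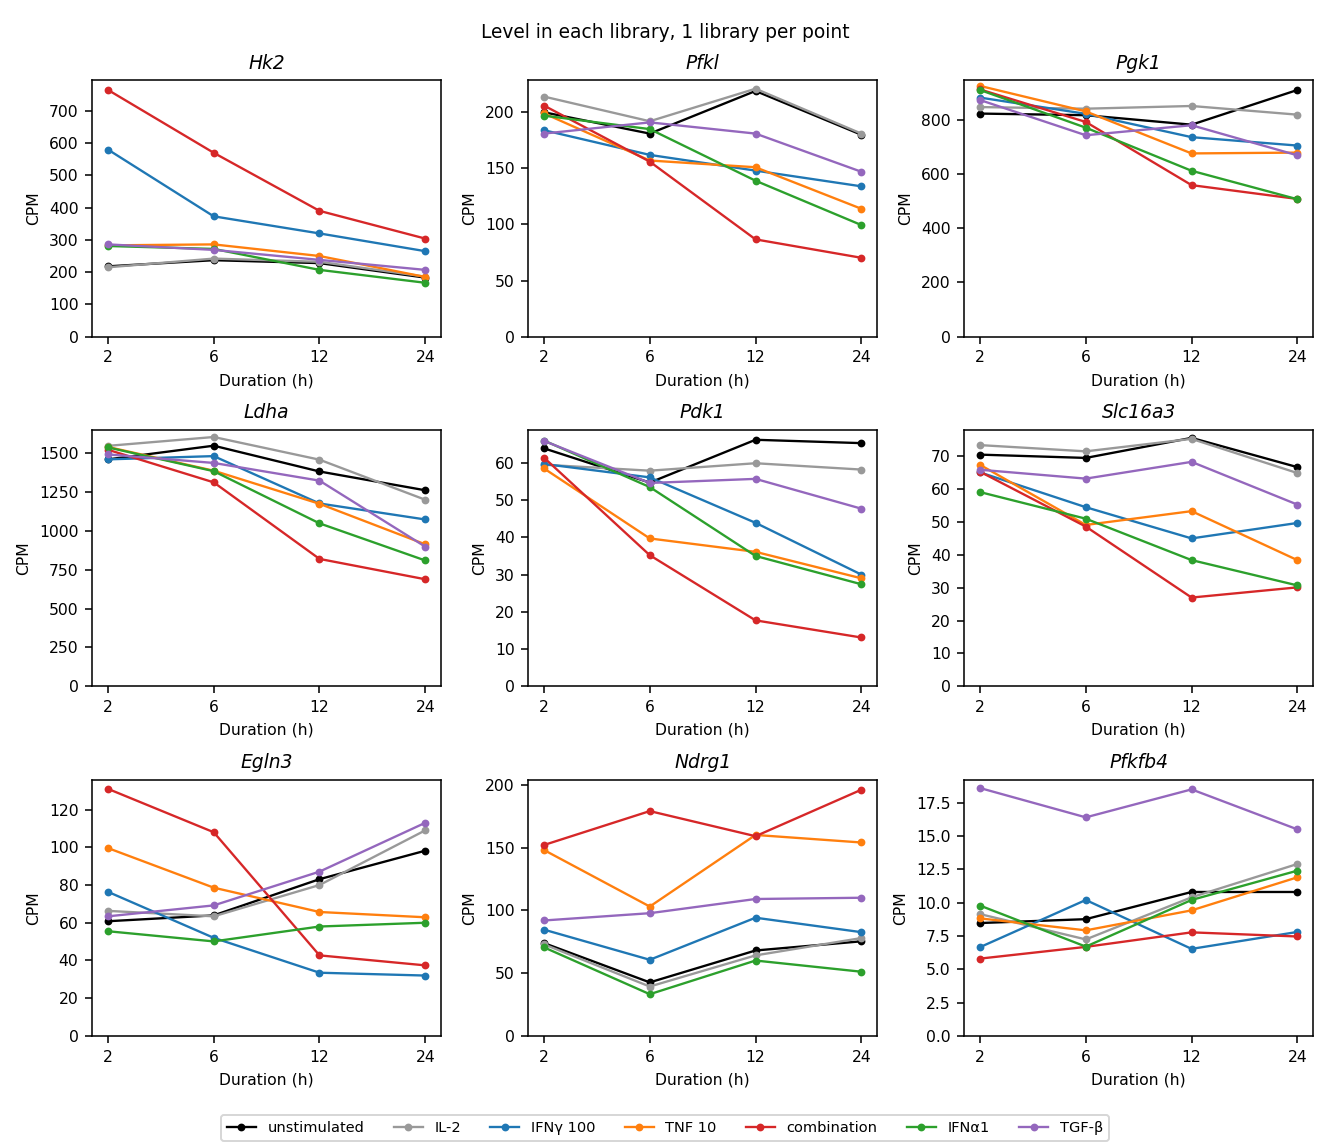
CPM (linear axis from 0) against duration (2, 6, 12 and 24 h, evenly spaced) for 9 genes in 7 conditions, 1 library per point with no error bars. Hk2 is highest at 2 h with IFNγ or the combination, and Pfkl, Pgk1, Ldha, Pdk1 and Slc16a3 drop in the combination. Ldha, Pfkl and Slc16a3 also end lower at 24 h than at 2 h in unstimulated cells, by less. Egln3 crosses from above to below, and Ndrg1 and Pfkfb4 stay raised with TNF and TGF-β respectively.

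Hif1a itself, the oxygen-regulated subunit, did not pass the test in the combination (0.04 ± 0.09), with 350, 297, 300 and 356 CPM in unstimulated and 465, 321, 283 and 281 CPM in combination libraries. The combination value was above all unstimulated ones at 2 h and below all of them at 12 and 24 h. HIF-1α is controlled mainly as a protein, which was not measured. Egln1, the main oxygen-sensing hydroxylase gene, fell by 0.34 ± 0.07 (adjusted p = 1.72e-04, edgeR). Egln3, a hydroxylase that HIF itself induces, had 60.8, 63.9, 83.1 and 98.2 CPM in unstimulated and 131, 108, 42.7 and 37.4 CPM in combination libraries. It was above all unstimulated libraries at 2 and 6 h and below them all at 12 and 24 h, and its mean of 0.05 ± 0.29 hides this crossing.

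The paired mitophagy receptors, through which cells remove mitochondria under low oxygen, had low late values. Bnip3l fell by 0.70 ± 0.15 (adjusted p = 3.22e-04, edgeR), with 64.9, 60.2, 56.1 and 72.9 CPM in unstimulated and 71.5, 32.9, 25.3 and 33.5 CPM in combination libraries. Bnip3 had 55.7, 35.4, 59.5 and 50.7 CPM without and 75.3, 35.3, 18 and 16.4 CPM with both cytokines, and -0.56 ± 0.27 was not called (adjusted p = 0.0988, edgeR). Of the collagen-modifying enzymes, Plod2, a lysyl hydroxylase, fell by 0.64 ± 0.13 and P4ha2 by 0.28 ± 0.09, and the prolyl hydroxylase subunit gene P4ha1 had -0.05 ± 0.05. The P4ha2 call was lost without the 6 h, the 12 h or the 24 h libraries.

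Ndrg1, a stress-responsive gene known from hypoxia and metal depletion, went the other way. Its unstimulated values were 73.9, 42.6, 68 and 75.3 CPM, and the combination had 152, 179, 159 and 196 CPM, which do not overlap. The change was 1.45 ± 0.14 (adjusted p = 9.20e-11, edgeR). Among the remaining hypoxia-responsive genes, Ankrd37 fell by 1.10 ± 0.30 at no more than 2.73 CPM in these groups, while Adm, Mxi1 and Kdm3a were not called. Over the 13 tested hypoxia genes outside glycolysis, 1 rose and 5 fell, beside 20.9% higher and 21.2% lower among all tested genes.

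IFNγ alone raised Hk2 and Pfkp and gave few other calls in the list when averaged over the 4 durations. At 100 ng/ml, 3 genes rose and 4 fell (12.8% and 9.3% of all tested genes), and at 1 ng/ml 2 rose and 1 fell (9.51% and 5.47%). With the 12 h and 24 h libraries only, 3 rose and 15 fell at 100 ng/ml, and 3 rose and 9 fell at 1 ng/ml. All genes called in those fits, in both directions together, were 3402 and 2935, against 2702 and 1827 over the 4 durations. Medians of the 35 genes at 100 ng/ml were -0.02, -0.03, -0.25 and -0.30 at 2, 6, 12 and 24 h. The median of all genes was -0.01 at each. Hk2 had 580, 373, 320 and 265 CPM at 100 ng/ml and 570, 361, 290 and 227 CPM at 1 ng/ml, against 183 to 237 CPM in unstimulated cells. All 4 libraries at 100 ng/ml were above that range, and at 1 ng/ml the 24 h library fell inside it. The changes were 0.78 ± 0.14 (adjusted p = 5.59e-05, edgeR) and 0.68 ± 0.14 (adjusted p = 4.74e-04, edgeR). The Hk2 call at 100 ng/ml held in all 12 alternatives tried, and that at 1 ng/ml was lost in a fit to the 2 groups alone and without duration terms.

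Pfkp rose by 0.42 ± 0.09 at 100 ng/ml and by 0.37 ± 0.09 at 1 ng/ml, from 41.6, 37.6, 53.7 and 51.8 CPM to 50.3, 55.6, 64.6 and 76.7 CPM at the higher dose. The third gene that rose at 100 ng/ml was Slc16a1, by 0.32 ± 0.11, with 244, 292, 314 and 299 CPM against 267, 253, 217 and 195 CPM. Its IFNγ library was lower at 2 h and higher at the other 3 durations, and the call was lost without the 6 h, the 12 h or the 24 h libraries. The genes that fell were Pfkm by 0.30 ± 0.10, Slc16a3 by 0.41 ± 0.15, Egln1 by 0.20 ± 0.07 and Plod2 by 0.38 ± 0.12, and each of these 4 calls was lost without at least 2 of the 4 durations taken singly. At 1 ng/ml Pfkm fell by 0.31 ± 0.10. No gene of the list was called between 100 and 1 ng/ml (0% of all tested genes in either direction), and none had an unadjusted p under 0.05 there. At 0.01 ng/ml no gene was called (0% in either direction, 0 at unadjusted p under 0.05), and DESeq2 called 0 in both of these comparisons.

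TNF raised Ndrg1 and gave no call for Hk2. At 10 ng/ml, Ndrg1 rose and 6 genes fell (9.83% and 7.3% of all tested genes). At 1 ng/ml 1 gene rose and 0 fell (2.01% and 0.713%), and at 0.1 ng/ml 0 were called (0.00819% in each direction). Ndrg1 had 148, 103, 160 and 154 CPM at 10 ng/ml, 132, 75, 102 and 92 CPM at 1 ng/ml and 98.8, 60.5, 89 and 78.1 CPM at 0.1 ng/ml. The ranges at 10 ng/ml and in unstimulated cells do not overlap, and at 0.1 ng/ml all 4 libraries were above the unstimulated one of the same duration. Changes were 1.13 ± 0.14 (adjusted p = 1.91e-07), 0.64 ± 0.14 (adjusted p = 0.00605) and 0.34 ± 0.14 (adjusted p = 0.937, unadjusted p = 0.0205), all from edgeR. Ndrg1 was the 1 gene of the list with an unadjusted p under 0.05 at the lowest dose, and DESeq2 called 0 there. Between 10 and 1 ng/ml, where 0.238% of all tested genes were called higher and 0% lower, the difference for Ndrg1 was 0.50 ± 0.13 (adjusted p = 0.172, edgeR). In that comparison 2 genes of the list had an unadjusted p under 0.05 and DESeq2 called 0. Without the 12 h libraries the Ndrg1 call at 1 ng/ml was lost.

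The 6 genes that fell with 10 ng/ml TNF were Pdk1 by 0.65 ± 0.23, Slc16a3 by 0.46 ± 0.15, Pfkm by 0.31 ± 0.10, Egln1 by 0.28 ± 0.07, Aldoa by 0.20 ± 0.07 and Gpi1 by 0.19 ± 0.07. Pdk1 had 58.5, 39.7, 36.1 and 29 CPM, with the 3 later libraries below all unstimulated ones. All 6 calls were lost in each fit that left out 6, 12 or 24 h, and the number called was then 1. Those fits called 920, 794 and 1122 of all genes, against 2091 in the full fit. With the 12 h and 24 h libraries only, 1 gene of the list rose and 15 fell. In both directions together, 2398 of all genes were called there. Hk2 had 283, 286, 250 and 185 CPM and 0.19 ± 0.14, which was not called. TNF and IFNγ comparisons share the unstimulated libraries, so their values are given side by side only.

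Adding TNF to IFNγ raised 4 genes and lowered 3 (8.49% and 5.42% of all tested genes). Ndrg1 rose by 1.13 ± 0.14, Hk2 by 0.38 ± 0.13, Slc2a1 by 0.32 ± 0.07 and Hk1 by 0.19 ± 0.05, and Gapdh, Ldha and Gpi1 fell by 0.47 ± 0.16, 0.29 ± 0.10 and 0.20 ± 0.07. Of these 7, Ndrg1 and Slc2a1 kept their calls whichever single duration was left out, and the adjusted p of Hk2 was 0.0499. Adding IFNγ to TNF raised Hk2 by 0.97 ± 0.13, Pfkp by 0.41 ± 0.09 and Hk1 by 0.24 ± 0.05, and lowered P4ha2 by 0.33 ± 0.09 (9.12% higher and 4.84% lower among all tested genes). With the 12 h and 24 h libraries only, these comparisons called 18 and 20 genes of the list, of which 14 and 16 were lower. Of all genes they called 2053 and 2274, in both directions together. No gene of the list passed a test of whether the combination differs from the sum of its parts (0.0656% of all tested genes higher, 0.0164% lower). There, 2 genes, Slc2a1 and Hk1, had an unadjusted p under 0.05, and DESeq2 called 0. The departure from additivity was 0.19 ± 0.19 for Hk2 and 0.00 ± 0.20 for Ndrg1.

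IFNα1 raised none of the genes and lowered 8 (6.18% of all tested genes higher, 3.09% lower), with a median of -0.22. Slc16a3 fell by 0.68 ± 0.15 (adjusted p = 0.00178, edgeR), with 59.1, 51, 38.4 and 30.7 CPM against 66.7 to 75.6 CPM in unstimulated cells. Every IFNα1 library was below that range. Pfkfb3 fell by 0.61 ± 0.19, Pgam1 by 0.36 ± 0.10, Eno1 by 0.32 ± 0.08 and Egln1 by 0.30 ± 0.07, and the smaller called changes were Gpi1 (-0.22 ± 0.07), Aldoa (-0.22 ± 0.07) and Slc2a1 (-0.21 ± 0.07), the last of which was lost in 11 of 12 alternatives, DESeq2 included. Hk2 had 281, 272, 207 and 167 CPM, above the unstimulated library at 2 and 6 h and below it at 12 and 24 h. Medians of the 35 genes were -0.01, -0.16, -0.18 and -0.42 at 2, 6, 12 and 24 h, and at 24 h 30 of the 35 had a lower value. Leaving out 12 or 24 h left 1 call each, leaving out 6 h left 2, and the 2 h and 6 h libraries alone gave 0. These fits called 572, 754, 562 and 492 of all genes, against 1131 in the full fit.

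**Figure D4:**
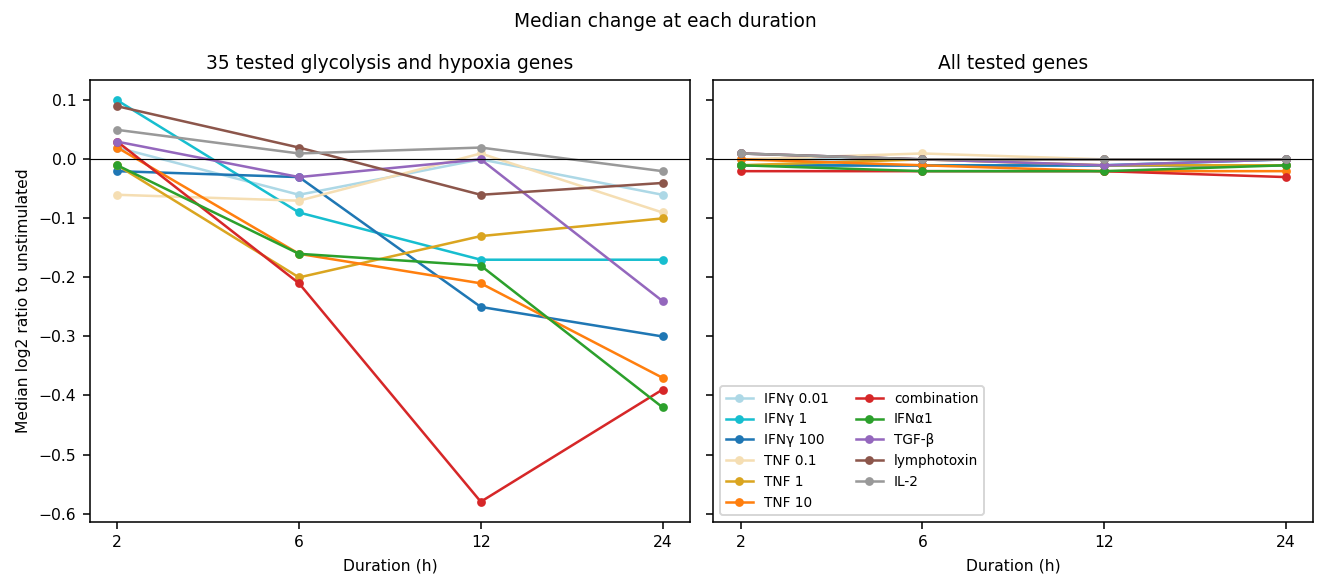
Median log2 ratio to the unstimulated library of the same duration, for the 35 tested genes (left) and for all tested genes (right), 1 line per stimulus and 1 library per point. On the left the combination reaches -0.58 at 12 h and IFNα1 -0.42 at 24 h, while the lines on the right stay near 0.

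TGF-β raised Ndrg1 and Pfkfb4 and lowered Eno2 and Pfkp (5.02% of all tested genes higher, 3.25% lower). Pfkfb4 had 18.6, 16.4, 18.5 and 15.5 CPM with TGF-β and 8.47, 8.76, 10.8 and 10.8 CPM without. The ranges do not overlap, the change was 0.85 ± 0.16 (adjusted p = 1.51e-04, edgeR), and the call held in all 12 alternatives tried. Ndrg1 had 91.9, 97.7, 109 and 110 CPM, each above all unstimulated values, and rose by 0.69 ± 0.14. Eno2 fell by 1.08 ± 0.26 at low level, with 1.55, 2, 1.05 and 3.23 CPM against 4.02, 3.08, 3.7 and 5.7 CPM. Pfkp fell by 0.28 ± 0.09, a call lost without the 6 h, the 12 h or the 24 h libraries. Egln3 and Hif1a were not called with TGF-β. Lymphotoxin and IL-2 gave no call (0% of all tested genes in each direction for both) and no gene of the list with an unadjusted p under 0.05, by edgeR, and DESeq2 called 0.

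Time in culture moved the genes as well. At 6 against 2 h, over all conditions, 0 genes of the list rose and 21 fell, where 29.6% of all tested genes rose and 27.5% fell. From 6 to 12 h 12 rose and 11 fell (27.6% and 27.1%), from 12 to 24 h 5 rose and 12 fell (15.2% and 16.9%), and from 2 to 24 h 5 rose and 25 fell (34.8% and 32.5%) with a median of -0.30. These averages include the stimulated libraries. In the unstimulated, IL-2 and lymphotoxin libraries alone, where 34 genes could be tested, 1 rose and 14 fell from 2 to 6 h (18.9% and 20.5% of the genes tested there). From 2 to 24 h 4 rose and 13 fell (25.7% and 24.6%), with a median of -0.07. Between those times, 12 rose and 9 fell from 6 to 12 h (22% and 21%), and 10 rose and 11 fell from 12 to 24 h (12.9% and 13.9%). Index sequences repeat between the early and the late pair of durations, and the column names give no pool or run. A batch between these pairs, if there was one, cannot be told apart from the step from 6 to 12 h, or from 2 to 24 h.

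Of the 34 genes tested in those 12 libraries, Pfkfb3 fell furthest from 2 to 24 h, by 1.58 ± 0.13 (adjusted p = 2.51e-12, edgeR). In unstimulated cells its level was 18.5, 12.2, 7.72 and 6.74 CPM at the successive durations. Adm was not tested in those libraries, and its median over all conditions was 1.36 CPM at 2 h and 0.329 CPM at 24 h. Egln3 rose by 0.67 ± 0.06, Pfkfb4 by 0.49 ± 0.14, Mxi1 by 0.40 ± 0.07 and Hk1 by 0.23 ± 0.04. Ldha fell by 0.34 ± 0.04, Slc16a1 by 0.43 ± 0.04, Pgam1 by 0.44 ± 0.07 and Egln1 by 0.40 ± 0.06, while Pgk1 had 0.02 and was not called. At 6 h, Ndrg1 was 0.84 ± 0.06 and Bnip3 0.68 ± 0.07 lower than at 2 h, by edgeR, and from 6 to 12 h both rose again, by 0.64 ± 0.07 and 0.71 ± 0.07.

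A separate model gave each stimulus a slope, the log2 change per doubling of hours relative to the unstimulated time course. The combination had 19 genes of the list with a falling and 1 with a rising slope (9.37% and 8.04% of all tested genes). Egln3 had the steepest, -0.75 ± 0.09, followed by Pdk1 (-0.66 ± 0.07), Bnip3 (-0.65 ± 0.15) and Ldhb (-0.58 ± 0.11). Hif1a fell with a slope of -0.21 ± 0.04 (adjusted p = 7.14e-05, edgeR), and Slc16a1 alone rose, at 0.11 ± 0.04, a call lost without 2, 12 or 24 h. IFNγ at 100 ng/ml had 4 falling and 1 rising slope (3.43% and 3.47%), TNF at 10 ng/ml 3 falling and 0 rising (1.38% and 1.06%), and IFNα1 4 falling and 0 rising (0.451% and 0.377%). Pdk1 was called in all 4 of these, with -0.28 ± 0.07 for IFNγ, -0.30 ± 0.07 for TNF and -0.39 ± 0.07 for IFNα1. In the combination the Pdk1 call held whichever single duration was left out, but it was lost without 24 h for IFNγ, without 2, 12 or 24 h for TNF and without 12 or 24 h for IFNα1. TGF-β had no called slope in the list (0.795% falling and 0.697% rising among all tested genes) by edgeR or DESeq2, and 7 genes with an unadjusted p under 0.05.

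Further genes of glucose use and hypoxia were taken from lists drawn up beside the 38, also with earlier results of these data known. Of 29 tested further hypoxia-responsive genes, 6 rose and 10 fell in the combination, of 13 further glycolytic enzymes 1 rose and 5 fell, and of 15 genes of pyruvate and lactate fate 4 rose and 6 fell, beside 20.9% higher and 21.2% lower among all tested genes. Slc2a6, which encodes the sugar transporter GLUT6, rose by 6.39 ± 0.39 from 0.574, 1.48, 0.322 and 0.259 CPM to 32.4, 107, 52.5 and 37.2 CPM. All combination libraries were far above the unstimulated ones, which held 20 counts in all, so the size of the fold is imprecise. Slc2a6 also rose by 4.19 ± 0.45 with 10 ng/ml TNF, by 3.30 ± 0.50 with 100 ng/ml IFNγ and by 2.20 ± 0.56 with IFNα1.

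Other kinases of pyruvate dehydrogenase differed from Pdk1 in places. Pdk3 had 40.8, 39.7, 39.2 and 38.4 CPM in unstimulated and 44.4, 67.2, 77.7 and 67.5 CPM in combination libraries, a range that lies above it, and rose by 0.70 ± 0.10 (adjusted p = 2.07e-07, edgeR). Pdk2 fell by 1.61 ± 0.31 at no more than 3.38 CPM in these groups. Bpgm, which diverts a glycolytic intermediate to 2,3-bisphosphoglycerate, fell by 1.59 ± 0.25, from 45.2, 39, 24.9 and 37.4 CPM to 25.4, 10.8, 8.54 and 7.46 CPM. Epas1, which encodes HIF-2α, fell by 1.51 ± 0.34, and Angptl4, a lipase inhibitor, rose by 2.35 ± 0.32 with the combination and by 2.26 ± 0.32 with 10 ng/ml TNF.

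With TGF-β, Vegfa, the angiogenic growth factor gene, rose by 1.05 ± 0.13, from 469, 237, 327 and 400 CPM to 810, 531, 651 and 944 CPM, ranges that do not overlap. In contrast, Vegfa fell by 0.69 ± 0.13 with 100 ng/ml IFNγ, at 331, 190, 186 and 170 CPM. Of the 29 further hypoxia-responsive genes tested, TGF-β raised 6 and lowered 4, beside 5.02% higher and 3.25% lower among all tested genes.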

How the data were processed

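RNA of NMM cells in 12 groups of 4 durations was sequenced, and raw read counts per gene were deposited by the authors, without normalisation. Reads were aligned with HISAT to GRCm38, per the submitters' processing notes. For the HISAT version, the counting tool and its strand setting the sources used here give nothing, so genes overlapping on opposite strands may share reads. Doses follow the sample titles, since separate dose fields differ for the lowest doses.

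Analysis used edgeR 4.0.16 under R 4.3.3: low-count filter (minimum count 10, total 15), TMM factors and a robust quasi-likelihood fit with stimulus and duration as additive factors for the 48 libraries (33 residual degrees of freedom). Slopes on log2 hours used a second fit (22 degrees of freedom). Tests are two-sided, with Benjamini-Hochberg adjustment over 12203 genes. Standard errors are |log2 change| over √F and approximate. CPM uses TMM-scaled totals, and ratios at single durations a prior count of 2. The fit was tested on simulated data. Alternatives were DESeq2 1.42.0, other size factors, no filter, and fewer libraries or terms.

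The 38 genes and the further lists were chosen with earlier results of these data known. All 38 could be named, and of the further genes the 5 called with the largest change per comparison and any set beside one of the 38. Replicate numbers stand for durations, which the duration terms pair across stimuli by design. Promoters are RefSeq windows.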

Additional observations from a re-analysis of the deposited data

Results flagged for a closer look

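The time courses of 32 pairs of gene and stimulus differed from that of unstimulated cells by a test of the difference itself (edgeR, adjusted p under 0.05). Values are slopes in log2 per doubling of hours, relative to unstimulated cells. With 100 ng/ml IFNγ they were Hif1a -0.14, Egln3 -0.57, Pdk1 -0.28, Slc16a1 0.22 and Hk2 -0.26. With 10 ng/ml TNF they were Egln3 -0.39, Pdk1 -0.30 and Pgk1 -0.17, and with IFNα1 Pdk1 -0.39, Eno1 -0.18, Ldha -0.20 and Pgk1 -0.27. In the combination they were Pfkl -0.44, Slc16a3 -0.34, Hif1a -0.21, Egln3 -0.75, Bnip3l -0.36, Pfkm -0.21, Pdk1 -0.66, Pfkfb3 -0.32, Slc16a1 0.11, Eno1 -0.22, Hk2 -0.32, Tpi1 -0.25, Ldhb -0.58, Aldoa -0.13, Gpi1 -0.19, Ldha -0.28, Bnip3 -0.65, Pkm -0.12, Plod2 -0.29 and Pgk1 -0.28. Most are negative, Slc16a1 being the exception in both conditions where it appears. Of 55 groups of 4 levels checked, none had a highest or lowest sample past Dixon's critical value at the 95% level, although chance alone marks about 1 in 20. The 4 levels of a group are the 4 durations of a condition, not repeats. They may differ by design, so this check cannot tell a faulty library from a change over time.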

How the results depend on the processing

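No duration was repeated, so a replicate number stands for a duration, and leaving out a replicate removes 1 duration from all stimuli. Counts below are genes of the list called, by edgeR unless DESeq2 is named. Against unstimulated cells, leaving out each duration in turn gave 2 to 14 with 100 ng/ml IFNγ (7 in the full fit), 1 to 9 with 1 ng/ml IFNγ (3), 1 to 12 with 10 ng/ml TNF (7), 0 to 1 with 1 ng/ml TNF (1), 15 to 25 in the combination (25), 1 to 10 with IFNα1 (8) and 2 to 6 with TGF-β (4). Of all genes, these fits called 1041 to 3442 (2702), 667 to 2750 (1827), 794 to 2645 (2091) and 43 to 718 (332) for IFNγ and TNF. In the combination they called 3436 to 5701 (5129), with IFNα1 562 to 1363 (1131) and with TGF-β 505 to 1206 (1010). Leaving out durations gave 2 to 18 for the combination against IFNγ (7), 3 to 13 against TNF (4) and 0 to 1 for 10 against 1 ng/ml TNF (0). There, all genes called were 643 to 2342 (1697), 786 to 2461 (1704) and 0 to 132 (29). For slopes, leaving out durations gave 1 to 7 with IFNγ (5), 0 to 4 with TNF (3) and 11 to 20 in the combination (20). TGF-β had 0 to 1 (0) and IFNα1 0 to 5 (4). All genes with called slopes were 37 to 1001 (842), 23 to 415 (297), 700 to 2266 (2125), 17 to 278 (182) and 0 to 259 (101). Other fits had no duration terms, that is no replicate block to pair libraries by duration. Against unstimulated cells, in the order above, the counts were then 1, 0, 1, 0, 11, 0 and 1. The combination against either single cytokine gave 1. Of all genes, 615, 355, 355, 38, 2388, 175 and 241 were called, and 350 and 426 against the single cytokines. With 2 h and 6 h libraries only, counts in the list were 1, 1, 1, 0, 7, 0 and 2, and 3 and 2 against the single cytokines. Among all genes they were 446, 272, 283, 104, 1853, 492 and 344, and 413 and 455. With 12 h and 24 h libraries only, counts in the list were 18, 12, 16, 2, 28, 14 and 7, then 18 and 20. For 10 against 1 ng/ml TNF the count was 5. Among all genes they were 3402, 2935, 2398, 420, 5355, 1156 and 1135, then 2053 and 2274, and 374. No filter on low counts gave 3 with 100 ng/ml IFNγ, 4 with 10 ng/ml TNF, 4 with IFNα1 and 3 for the combination against IFNγ. All genes called were then 2028, 1522, 800 and 1257. The compared groups alone gave 6 with 1 ng/ml TNF, 1 with 0.1 ng/ml, 5 in the combination, 5 with IFNα1 and 6 for the TNF slope. Beside these, 859, 118, 2024, 799 and 364 of all genes were called. DESeq2 gave 5 with 1 ng/ml IFNγ, and IL-2 libraries as the reference gave 4 with 10 ng/ml TNF (1870 and 2068 of all genes). For time in culture, no stimulus terms gave 13 from 6 to 12 h (23), and the unstimulated, IL-2 and lymphotoxin libraries alone 17 from 2 to 24 h (30). All genes called in these fits were 5464 (6679) and 5801 (8207). Directions turned for Pgk1 in the combination at 2 h and 6 h only (0.06), and in those quiet libraries for Slc16a3 (0.01) and Aldoa (0.03) from 2 to 6 h and Pgk1 (0.02) from 2 to 24 h. The cause of these shifts was not tested, beyond the smaller number of libraries. All 189 called single-gene effects kept their direction under DESeq2, and 186 their call. Depth limits Adm, Ankrd37 and Eno2 most.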
